A study of Mus musculus with 12 samples.

Results

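The genes described here are the 37 genes of the TCA cycle, of pyruvate entry into it and of citrate and malate handling, listed by name. All 37 were found among the 20887 genes that the arrays' transcript accessions name, on 49 probes. A level on these arrays could be tested for 36 of them among 13120 genes in all. The exception was Pdk4, a pyruvate dehydrogenase kinase, which was well above background on 1 of 12 arrays and on no complete group.

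The cells were bone marrow-derived macrophages, grown from mouse marrow in M-CSF, the growth factor of that lineage, for 5 to 7 days in medium that also held sodium pyruvate. The 4 groups were ERRα-/- cells given LPS, ERRα-/- cells given PBS, ERRα+/+ cells given LPS and ERRα+/+ cells given PBS, with 3 arrays each. LPS, a part of the bacterial outer membrane sensed through TLR4, was used at 100 ng/mL, PBS was its solvent, and the labels give no length of treatment. ERRα is the nuclear receptor encoded by Esrra, known for driving genes of mitochondrial energy metabolism. All mice were male C57BL6 animals aged 6 to 8 weeks. The deleted stretch of Esrra and the making of the allele are not described. Nor is it said whether the arrays of a group came from separate animals, so that p-values measure only the spread between these samples. The source of some samples is labelled as a cell line, although the design names cells from mouse marrow.

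The TCA cycle oxidises acetyl-CoA in mitochondria and hands its electrons to the respiratory chain. Pyruvate enters it as acetyl-CoA through the pyruvate dehydrogenase complex, which kinases (Pdk1 to Pdk4) switch off and phosphatases (Pdp1 and Pdp2) switch on, or as oxaloacetate through pyruvate carboxylase. In macrophages activated by LPS the cycle is known to be remodelled at isocitrate and succinate dehydrogenase, and citrate is drawn off for lipid synthesis and for itaconate, an antimicrobial metabolite.

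Each level below is the log2 signal of a gene's probe relative to the 75th percentile of the same array, so 0 is that percentile and a step of 1 is a doubling. Each difference is a log2 difference ± the standard error (SE) of the limma fit, with n = 3 arrays per group, and a gene is called at an adjusted p under 0.05 over all genes tested. Levels of different probes were not compared with each other. In bulk RNA, fewer cells of a type and less RNA per cell cannot be told apart. Of the probes, 45.4% to 56.7% per array were well above background, and no spot was saturated. Replicate 1 of every group lay on slide 1, scanned apart from replicates 2 and 3 on slide 2, and the slides parted the arrays along the second principal component (10.0% of the variance, against 76.1% for the first, which parted LPS from PBS). All 7 measured macrophage markers were well above background on every array of every group. Esrra read 4.40, 3.92 and 3.83 in ERRα-/- cells with LPS, against 5.87, 6.25 and 6.36 in ERRα+/+ cells with LPS (-2.11 ± 0.51, adjusted p = 0.202). With PBS it read 2.48, 0.25 and 0.15 in ERRα-/- cells, against 4.54, 4.39 and 4.68 in ERRα+/+ cells (-3.58 ± 0.51, adjusted p = 0.0225). The groups did not overlap under either treatment, but the difference was called under PBS and not under LPS, and the Esrra signal rose with LPS in ERRα-/- cells (3.09 ± 0.51, adjusted p = 0.0007). Where its probe lies relative to the deletion is unknown, so Esrra does not check the labels.

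Promoter windows were available for 33 of the 37 genes in the RefSeq table of GRCm38.p6, each from 250 bases before to 50 after a start, in 43 windows. Idh3a, Sdhc, Me2 and Pdp1 had none. The element that ERRα is known to bind, TNAAGGTCA, was searched on both strands and lay in the window of 1 gene, Sdhd, against 1.43% of all genes with a window. Its shorter core AAGGTCA, which the longer element contains, lay in Ogdh and Sdhd (5.38% of all genes). The NF-kB site, searched as GGGAA and TTCC parted by any 1 base, lay in none (0.396% of all genes), and the E-box CACGTG, which was added to the search after the windows had been read, in Ogdh, Pcx, Pdk2, Pdp2 and Slc25a1 (8.09% of all genes). A match is a run of letters and not a shown binding site. The sites below stand for the ERRα element and its core, at positions 37 to 45 after the Sdhd start and -5 to 2 around the Ogdh start. The 250 bases before the starts of Pdk2, which had the largest LPS difference of the set, and of Slc25a1, which alone passed a test of genotype once the slide was fitted, are shown with them. The E-box lies at -126 to -121 in Pdk2 and at -239 to -234 in Slc25a1. Capitals mark the match, which in Sdhd and Ogdh is read on the other strand.
Sdhd, chr9:50603800-50603829, minus strand: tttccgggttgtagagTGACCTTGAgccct
Ogdh, chr11:6292153-6292182, plus strand: cggacacggcgcTGACCTTggtgcctgcgg
Pdk2, chr11:95041372-95041621, minus strand: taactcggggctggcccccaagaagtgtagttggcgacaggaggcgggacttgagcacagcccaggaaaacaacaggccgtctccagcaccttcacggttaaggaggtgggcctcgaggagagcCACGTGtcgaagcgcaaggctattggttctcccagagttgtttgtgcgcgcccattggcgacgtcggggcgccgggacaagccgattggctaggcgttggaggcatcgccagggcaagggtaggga
Slc25a1, chr16:17928220-17928469, minus strand: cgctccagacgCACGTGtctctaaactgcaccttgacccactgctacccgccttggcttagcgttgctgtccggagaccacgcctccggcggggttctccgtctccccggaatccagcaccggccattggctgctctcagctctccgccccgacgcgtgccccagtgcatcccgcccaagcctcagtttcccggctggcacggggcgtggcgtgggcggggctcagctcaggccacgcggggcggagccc

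LPS moved individual enzymes of the set in both directions, and most of what it moved was shared by the genotypes. In ERRα-/- cells 16 of 36 genes were called (44.4%), 6 higher and 10 lower with LPS, beside 50.4% of all genes (25.1% higher, 25.3% lower). In ERRα+/+ cells 15 were called (41.7%), 7 higher and 8 lower, beside 45.9% of all genes (22.2% higher, 23.7% lower). Both shares lie near those of all genes. Me1, Dld, Dlst, Idh3a and Cs rose in both genotypes, and Pdk2, Idh1, Idh2, Aco1, Idh3g, Mdh1 and Suclg2 fell in both. These 12 genes are 75% of the ERRα-/- calls and 80% of the ERRα+/+ calls, and over all genes the shared calls are 80.6% and 88.5%. No gene of the set was called in opposite directions, and over all genes the number was also 0. The 3 LPS arrays did not overlap the 3 PBS arrays in 21 of the 36 genes in ERRα-/- cells (58.3%, beside 59.5% of all genes) and in 17 in ERRα+/+ cells (47.2%, beside 53.9%). The median difference of the 36 genes was -0.07 in ERRα-/- cells and -0.04 in ERRα+/+ cells, against 0.05 and 0.02 over all genes.

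**Figure D1:**
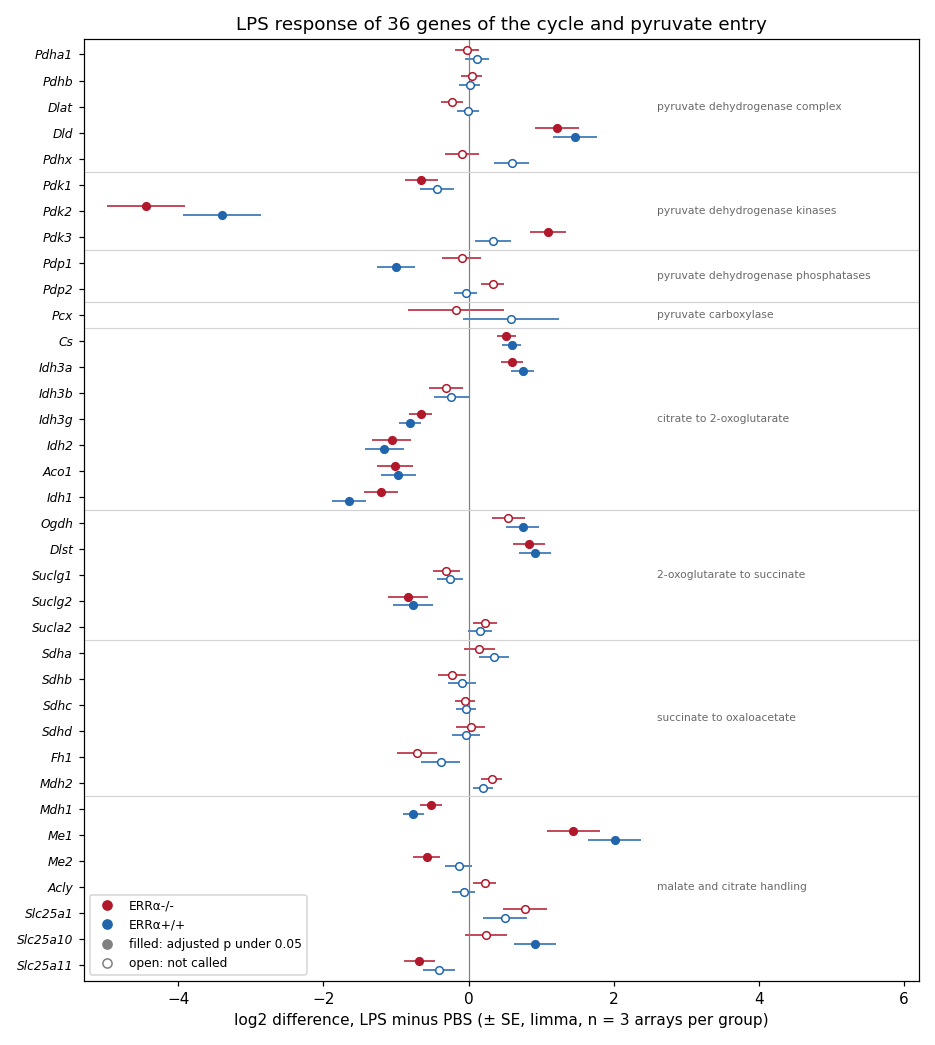
Log2 difference, LPS minus PBS, for the 36 tested genes grouped by role, with ERRα-/- in red above ERRα+/+ in blue (points, limma estimate from 3 arrays per group; bars, SE; filled, called at an adjusted p under 0.05). Pdk2 lies far to the left at -4.44 and -3.40, Me1 and Dld to the right, and the 6 genes from succinate to oxaloacetate are all open.

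The slides bear on how many genes pass. With slide as a block 23 genes were called in ERRα-/- cells (63.9%, against 65.5% of all genes) and 19 in ERRα+/+ cells (52.8%, against 62.7%). Within slide 2 the numbers were 25 (69.4%, against 73.7%) and 21 (58.3%, against 72.3%). All 16 ERRα-/- calls and 14 of the 15 ERRα+/+ calls stayed called within slide 2, the exception being Slc25a10 (adjusted p = 0.0745), and all 31 had the same direction on slide 1. With the replicate number as a block the counts were 22 (against 63.6% of all genes) and 19 (against 60.5%). Quantile normalization, which lowered the median of all genes to -0.15 in ERRα-/- and -0.14 in ERRα+/+ cells, called 4 higher and 16 lower in ERRα-/- cells, beside 20% of all genes higher and 30.1% lower (50.1% in all). In ERRα+/+ cells it called 4 higher and 13 lower, beside 18.4% higher and 28.4% lower (46.7% in all).

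The kinases that switch off pyruvate dehydrogenase showed the largest change of the set. Pdk2, a widely expressed isoform, fell with LPS in both genotypes. It read -2.99, -4.82 and -4.69 in ERRα-/- cells with LPS, against 0.13, 0.38 and 0.29 in ERRα-/- cells with PBS. In ERRα+/+ cells Pdk2 read -1.89, -3.80 and -3.39 with LPS, against -0.01, 0.49 and 0.63 with PBS. Every LPS array thus lay below every PBS array of either genotype. The log2 difference was -4.44 ± 0.54 in ERRα-/- cells (21.7-fold lower, adjusted p = 0.000127) and -3.40 ± 0.54 in ERRα+/+ cells (10.6-fold lower, adjusted p = 0.000636). The probe was well above background on only 1 of 3 ERRα-/- LPS arrays and 2 of 3 ERRα+/+ LPS arrays, so the low end of both folds rests on dim spots. It passed the filter on dim probes only through the PBS groups, where it is high. With normexp background correction the differences were -2.43 and -2.31, still called. Over all alternatives they ran from -5.09 to -2.43 in ERRα-/- and from -4.16 to -2.31 in ERRα+/+ cells, so the size of either fold is uncertain.

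Pdk3, the isoform least restrained by pyruvate, moved the other way in ERRα-/- cells. It read 0.69, 1.54 and 1.52 with LPS there, against 0.40, 0.10 and -0.03 with PBS, and rose by 1.09 ± 0.24 (adjusted p = 0.00405). In ERRα+/+ cells Pdk3 read 0.47, 0.79 and 0.91 with LPS and 0.59, 0.18 and 0.37 with PBS, groups that overlap (0.34 ± 0.24, adjusted p = 0.279). Within slide 2 the ERRα+/+ difference was 0.57 (adjusted p = 0.00217) and on slide 1 it was -0.12. Pdk1, which hypoxia is known to induce, read -0.26, -0.08 and 0.32 in ERRα-/- cells with LPS, against 0.73, 0.68 and 0.52 with PBS, with no overlap (-0.65 ± 0.23, adjusted p = 0.0373). In ERRα+/+ cells Pdk1 read 0.42, 0.36 and 0.19 with LPS, against 1.28, 0.40 and 0.62 with PBS, and was not called (-0.44 ± 0.23, adjusted p = 0.145). The ERRα-/- call of Pdk1 ended without any of 6 single arrays, with an adjusted p of up to 0.103 without ERRα-/- LPS replicate 2.

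Of the phosphatases that switch the complex back on, Pdp1 fell with LPS in ERRα+/+ cells, where it read 0.94, 1.30 and 1.36 with LPS, against 2.48, 2.03 and 2.09 with PBS. The fall was -1.0 ± 0.27 (2.00-fold, adjusted p = 0.0111), and 2 further Pdp1 probes gave -0.86 and -1.29. In ERRα-/- cells Pdp1 read 1.17, 2.25 and 2.12 with LPS, against 1.96, 1.98 and 1.87 with PBS, so that the arrays of slide 1 and slide 2 disagreed on the direction. The difference was -0.09 ± 0.27 over all arrays (adjusted p = 0.793), -0.80 on slide 1 and 0.26 within slide 2 (adjusted p = 0.029). Pdp2 was called in neither genotype (0.33 ± 0.16 in ERRα-/- and -0.04 ± 0.16 in ERRα+/+ cells).

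Within the complex itself LPS raised 1 of 5 subunits in each genotype, beside 25.1% of all genes in ERRα-/- and 22.2% in ERRα+/+ cells. Dld, the dihydrolipoamide dehydrogenase that pyruvate dehydrogenase shares with the 2-oxoglutarate and branched-chain complexes, read 3.47, 4.27 and 4.35 in ERRα-/- cells with LPS, against 2.51, 3.02 and 2.91 with PBS. In ERRα+/+ cells Dld read 3.54, 4.40 and 4.31 with LPS, against 2.67, 2.29 and 2.89 with PBS. The rises were 1.22 ± 0.30 (2.32-fold, adjusted p = 0.00709) and 1.46 ± 0.30 (2.76-fold, adjusted p = 0.00295), the groups did not overlap in either genotype, and another Dld probe gave 1.23 and 1.30. The catalytic subunits Pdha1 and Pdhb and the acetyltransferase Dlat were called in neither genotype over all arrays, with differences between -0.23 and 0.11. Within slide 2 the Dlat difference in ERRα-/- cells was -0.44 (limma adjusted p = 0.00255), and on slide 1 it was 0.20. Pdhx, which anchors Dld in the complex, differed by -0.09 ± 0.24 in ERRα-/- and 0.59 ± 0.24 in ERRα+/+ cells and was not called, while with the replicate number as a block the ERRα+/+ value was called (adjusted p = 0.0493).

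Pyruvate carboxylase, the other entry, cannot be given a direction. Pcx read 0.32, -1.21 and -1.26 in ERRα-/- cells with LPS, against -0.81, -0.43 and -0.40 with PBS. In ERRα+/+ cells Pcx read 1.73, -0.78 and -1.02 with LPS, against -1.05, -0.56 and -0.21 with PBS. On slide 1 LPS was thus higher than PBS in both genotypes (1.13 and 2.78), and on slide 2 lower in both (-0.82, adjusted p = 0.00178, and -0.52, adjusted p = 0.0142). Over all arrays the differences were -0.17 ± 0.66 and 0.58 ± 0.66.

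The steps from citrate to 2-oxoglutarate held the most calls, with 2 genes higher and 4 lower of 7 in each genotype, beside 50.4% (ERRα-/-) and 45.9% (ERRα+/+) of all genes called either way. Cs, citrate synthase, read 6.46, 6.47 and 6.49 in ERRα-/- cells with LPS, against 5.97, 6.00 and 5.90 with PBS. In ERRα+/+ cells Cs read 6.42, 6.48 and 6.59 with LPS, against 6.11, 5.79 and 5.81 with PBS. LPS arrays lay above PBS arrays throughout, by 0.52 ± 0.13 (adjusted p = 0.00794) and 0.59 ± 0.13 (adjusted p = 0.00445), a direction that quantile normalization turned in ERRα-/- cells (-0.04) and reduced in ERRα+/+ cells (0.12). Aco1, the cytosolic aconitase that doubles as an iron sensor, read -2.24, -2.34 and -2.19 in ERRα-/- cells with LPS, against -0.77, -1.51 and -1.45 with PBS. In ERRα+/+ cells Aco1 read -2.11, -2.37 and -2.15 with LPS, against -1.58, -1.39 and -0.77 with PBS. The falls were -1.01 ± 0.24 (adjusted p = 0.00587) and -0.97 ± 0.24 (adjusted p = 0.00831), without overlap.

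The NADP-dependent isocitrate dehydrogenases both fell. Idh1, the cytosolic enzyme, read 0.86, 1.23 and 1.29 in ERRα-/- cells with LPS, against 1.92, 2.49 and 2.59 with PBS. In ERRα+/+ cells Idh1 read 0.96, 0.49 and 0.88 with LPS, against 2.1, 2.47 and 2.69 with PBS. The groups were far apart in both genotypes, at -1.21 ± 0.23 (2.31-fold lower, adjusted p = 0.00181) and -1.64 ± 0.23 (3.13-fold lower, adjusted p = 0.000334). Idh2, its mitochondrial counterpart, read 3.56, 4.21 and 4.13 in ERRα-/- cells with LPS, against 4.50, 5.27 and 5.31 with PBS. In ERRα+/+ cells Idh2 read 3.94, 3.88 and 4.07 with LPS, against 4.72, 5.29 and 5.36 with PBS. It fell in both, by -1.06 ± 0.27 (adjusted p = 0.00739) and -1.16 ± 0.27 (adjusted p = 0.00516), again without overlap.

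The NAD-dependent enzyme of the cycle is built of 3 kinds of subunit, and these did not move together. Idh3a, its catalytic subunit, rose, reading 2.63, 2.56 and 2.64 in ERRα-/- cells with LPS, against 1.98, 2.08 and 1.97 with PBS. In ERRα+/+ cells Idh3a read 2.82, 3.15 and 3.09 with LPS, against 2.53, 2.06 and 2.23 with PBS. The differences were 0.60 ± 0.15 (adjusted p = 0.00823) and 0.75 ± 0.15 (adjusted p = 0.00293), without overlap. Idh3g, a regulatory subunit, fell, reading 5.07, 4.91 and 4.75 in ERRα-/- cells with LPS, against 5.49, 5.66 and 5.57 with PBS. In ERRα+/+ cells Idh3g read 4.97, 4.86 and 4.80 with LPS, against 5.41, 5.75 and 5.88 with PBS. Here the differences were -0.66 ± 0.16 (adjusted p = 0.00569) and -0.81 ± 0.16 (adjusted p = 0.00213), again without overlap, and both subunits kept their direction and call under quantile normalization. Idh3b, the other regulatory subunit, was not called (-0.31 ± 0.24 in ERRα-/- and -0.24 ± 0.24 in ERRα+/+ cells), although it was in ERRα-/- cells with the replicate block (adjusted p = 0.0372).

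**Figure D2:**
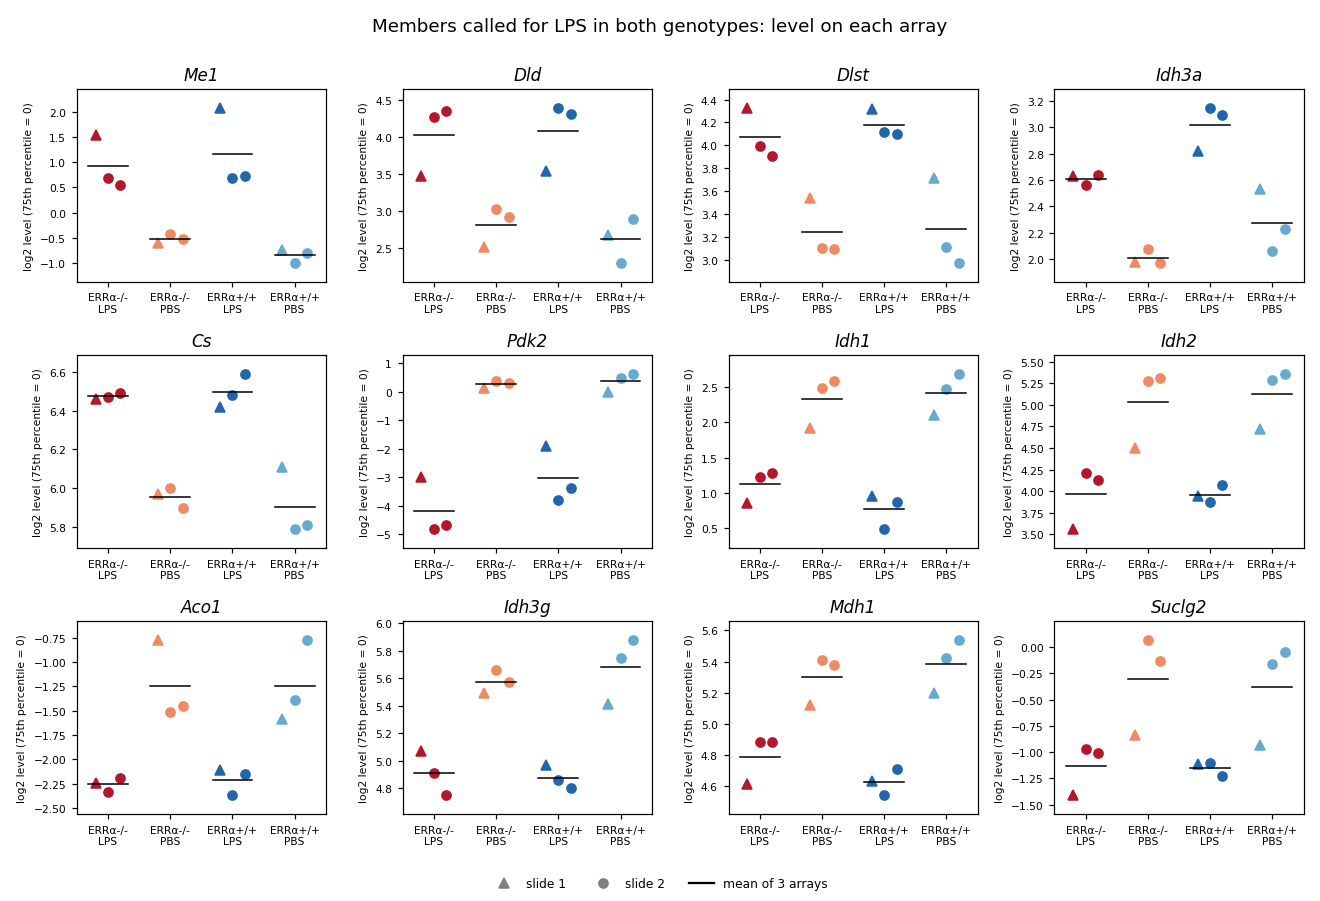
Level on each array (log2, 75th percentile of the array = 0) of the 12 genes called for LPS in both genotypes, with the groups from left to right ERRα-/- LPS, ERRα-/- PBS, ERRα+/+ LPS and ERRα+/+ PBS (triangles, slide 1; circles, slide 2; lines, means of 3 arrays). In each panel the LPS arrays of a genotype lie wholly above or wholly below its PBS arrays, and the vertical scale differs between panels.

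From 2-oxoglutarate to succinate, the gene of the core subunit of the 2-oxoglutarate complex rose and that of 1 succinyl-CoA ligase subunit fell. Dlst, the succinyltransferase core, read 4.33, 3.99 and 3.91 in ERRα-/- cells with LPS, against 3.54, 3.10 and 3.09 with PBS. In ERRα+/+ cells Dlst read 4.32, 4.12 and 4.10 with LPS, against 3.71, 3.11 and 2.97 with PBS. It rose by 0.83 ± 0.22 (adjusted p = 0.00967) and 0.91 ± 0.22 (adjusted p = 0.00664), and with quantile normalization both calls were lost (adjusted p = 0.116 and 0.0663). Suclg2, the subunit that makes the ligase GTP-specific, read -1.41, -0.97 and -1.01 in ERRα-/- cells with LPS, against -0.84, 0.07 and -0.13 with PBS. In ERRα+/+ cells Suclg2 read -1.11, -1.10 and -1.23 with LPS, against -0.93, -0.16 and -0.05 with PBS. The differences were -0.83 ± 0.28 (adjusted p = 0.0299) and -0.77 ± 0.28 (adjusted p = 0.0455). The ERRα-/- call ended without any of 4 single arrays (adjusted p up to 0.116 without ERRα-/- PBS replicate 2) and the ERRα+/+ call without any of 8 (up to 0.153 without ERRα+/+ PBS replicate 3).

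Ogdh, the E1 subunit of the same complex and a gene with the ERRα core near its start, read 4.98, 5.29 and 5.17 in ERRα-/- cells with LPS, against 4.85, 4.53 and 4.43 with PBS. In ERRα+/+ cells Ogdh read 4.94, 4.84 and 4.98 with LPS, against 4.70, 4.10 and 3.73 with PBS. LPS arrays lay above PBS arrays in both genotypes, but the difference was called in ERRα+/+ cells alone (0.55 ± 0.23, adjusted p = 0.0682 in ERRα-/-, and 0.75 ± 0.23, adjusted p = 0.0212 in ERRα+/+ cells), and with the replicate block in ERRα-/- cells too (adjusted p = 0.0485). The probes disagreed on its size: 1 other gave 0.30 and 0.27 and another 0.22 and 0.14 in ERRα-/- and ERRα+/+ cells, and quantile normalization turned the direction of the tested probe (-0.16 and -0.14). The ERRα+/+ call ended without any of 3 single arrays (adjusted p up to 0.0836 without ERRα+/+ PBS replicate 3). Suclg1, the shared ligase subunit, was not called at -0.31 ± 0.18 and -0.26 ± 0.18, but was with the replicate block (adjusted p = 0.0207 in ERRα-/- and 0.0444 in ERRα+/+ cells). Sucla2, the ATP-specific subunit, was called in neither genotype (0.23 ± 0.16 and 0.15 ± 0.16), though the ERRα-/- difference was called with slide as a block (adjusted p = 0.0336).

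Genes of the steps from succinate to oxaloacetate were called in neither genotype, 0 of 6 in each by limma. Of all genes 50.4% (ERRα-/-) and 45.9% (ERRα+/+) were called either way. With slide as a block 1 of the 6 was called higher and 1 lower in ERRα-/- cells, beside 65.5% of all genes either way. In ERRα+/+ cells that fit called 1 lower, beside 62.7%. The 4 subunit genes of succinate dehydrogenase, which is also respiratory complex II, differed by -0.23 to 0.15 in ERRα-/- cells and by -0.09 to 0.35 in ERRα+/+ cells. Sdhd, the membrane anchor whose window holds the ERRα element, differed by 0.03 (95% interval -0.41 to 0.46) in ERRα-/- cells and by -0.04 (-0.47 to 0.40) in ERRα+/+ cells. Fh1, fumarase, read 3.11, 3.73 and 3.71 in ERRα-/- cells with LPS, against 3.61, 4.53 and 4.55 with PBS, which on each slide is lower with LPS. The difference of -0.71 ± 0.27 missed the threshold (adjusted p = 0.0516) and passed it with the replicate block (adjusted p = 0.00308), as did the -0.39 ± 0.27 of ERRα+/+ cells (adjusted p = 0.0478). Mdh2, the malate dehydrogenase of mitochondria, differed by 0.32 ± 0.14 and 0.20 ± 0.14, and was called in ERRα-/- cells with the replicate block (adjusted p = 0.0333). Quantile normalization turned both Mdh2 values (-0.19 and -0.22).

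Among the enzymes and carriers that move malate and citrate out of mitochondria, Me1, the cytosolic malic enzyme that yields NADPH, rose most. It read 1.54, 0.69 and 0.55 in ERRα-/- cells with LPS, against -0.60, -0.42 and -0.53 with PBS. In ERRα+/+ cells Me1 read 2.08, 0.68 and 0.73 with LPS, against -0.74, -1.0 and -0.80 with PBS. LPS arrays lay above all PBS arrays, by 1.44 ± 0.36 (2.72-fold, adjusted p = 0.00746) in ERRα-/- and 2.01 ± 0.36 (4.03-fold, adjusted p = 0.00138) in ERRα+/+ cells, and 2 further probes gave 1.46 to 2.23. Me2, the mitochondrial malic enzyme, read 0.62, 0.21 and 0.21 in ERRα-/- cells with LPS, against 0.95, 0.98 and 0.84 with PBS, a fall of 0.58 ± 0.19 (adjusted p = 0.0266). In ERRα+/+ cells Me2 read 0.87, 0.55 and 0.43 with LPS, against 1.07, 0.60 and 0.59 with PBS, groups that overlap (-0.14 ± 0.19, adjusted p = 0.58). The ERRα-/- call of Me2 ended without any of 5 single arrays, with an adjusted p of up to 0.094 without ERRα-/- LPS replicate 2.

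Mdh1, the cytosolic malate dehydrogenase of the malate-aspartate shuttle, fell. It read 4.61, 4.88 and 4.88 in ERRα-/- cells with LPS, against 5.12, 5.41 and 5.38 with PBS. In ERRα+/+ cells Mdh1 read 4.63, 4.54 and 4.71 with LPS, against 5.20, 5.42 and 5.54 with PBS. The falls were -0.51 ± 0.15 (adjusted p = 0.0159) and -0.76 ± 0.15 (adjusted p = 0.00239), without overlap, and the ERRα-/- call ended when replicate 2 (adjusted p = 0.063) or 3 of the ERRα-/- PBS group was left out.

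The carriers differed from each other. Slc25a11, which exchanges malate for 2-oxoglutarate, read 5.59, 5.30 and 5.30 in ERRα-/- cells with LPS, against 5.66, 6.25 and 6.33 with PBS. In ERRα+/+ cells Slc25a11 read 5.86, 5.30 and 5.51 with LPS, against 5.77, 6.07 and 6.05 with PBS, with overlap through replicate 1. It fell by 0.68 ± 0.22 in ERRα-/- cells (adjusted p = 0.0232, and up to 0.0932 without ERRα-/- PBS replicate 3), nearly all of it on slide 2 (-0.99, against -0.06 on slide 1). The ERRα+/+ difference was -0.41 ± 0.22 over all arrays (adjusted p = 0.148) and -0.65 within slide 2 (adjusted p = 0.000792). Slc25a10, the dicarboxylate carrier, read 0.85, 0.35 and -0.03 in ERRα-/- cells with LPS, against 0.02, 0.17 and 0.25 with PBS, groups that overlap (0.25 ± 0.29, adjusted p = 0.507). In ERRα+/+ cells Slc25a10 read 1.03, 0.32 and 0.39 with LPS, against -0.74, -0.42 and 0.15 with PBS, and rose by 0.92 ± 0.29 (adjusted p = 0.0247), 1.78 on slide 1 and 0.49 within slide 2. That call ended without any of 3 single arrays (adjusted p up to 0.0838 without ERRα+/+ PBS replicate 1).

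Slc25a1, the citrate carrier, whose promoter is printed above, read 3.33, 2.98 and 2.80 in ERRα-/- cells with LPS, against 2.81, 1.99 and 1.98 with PBS. In ERRα+/+ cells Slc25a1 read 2.84, 2.41 and 2.34 with LPS, against 2.59, 1.71 and 1.78 with PBS. Within each slide LPS was higher than PBS in both genotypes. The differences, 0.78 ± 0.30 (adjusted p = 0.0516) and 0.50 ± 0.30 (adjusted p = 0.196), were called with the replicate block (adjusted p = 0.00104 and 0.00957). Acly, which splits the exported citrate into acetyl-CoA and oxaloacetate, was called in neither genotype (0.22 ± 0.15 in ERRα-/- and -0.07 ± 0.15 in ERRα+/+ cells).

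Loss of ERRα was the other comparison of the study, and limma with all arrays called 0 of the 36 genes for it. Under LPS 0 were called beside 0.13% of all genes, under PBS 0 beside 0.427%, and on the average of both treatments 0 beside 1.36%. For the difference in LPS response between genotypes 0 were called, as for all genes (0%). At an unadjusted p under 0.05 the counts of the 36 genes were 4 under LPS, 0 under PBS, 3 on the average and 1 for the difference in response, against 821, 862, 1236 and 292 of 13120 genes. The variant of limma with a mean-variance trend also called 0 in each. The median of the 36 differences was -0.09 under LPS and -0.01 under PBS, against -0.01 and -0.02 over all genes. A miss is no proof of equal levels, so the intervals are given. Under LPS the 95% interval of the difference stayed within 2-fold either way for 30 of the 36 genes, and under PBS for 32. The genes with wider intervals under LPS were Me1, Pdk2, Pdk3, Pdp1, Pcx and Slc25a1, and under PBS Me1, Pdk2, Pcx and Slc25a10.

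**Figure D3:**
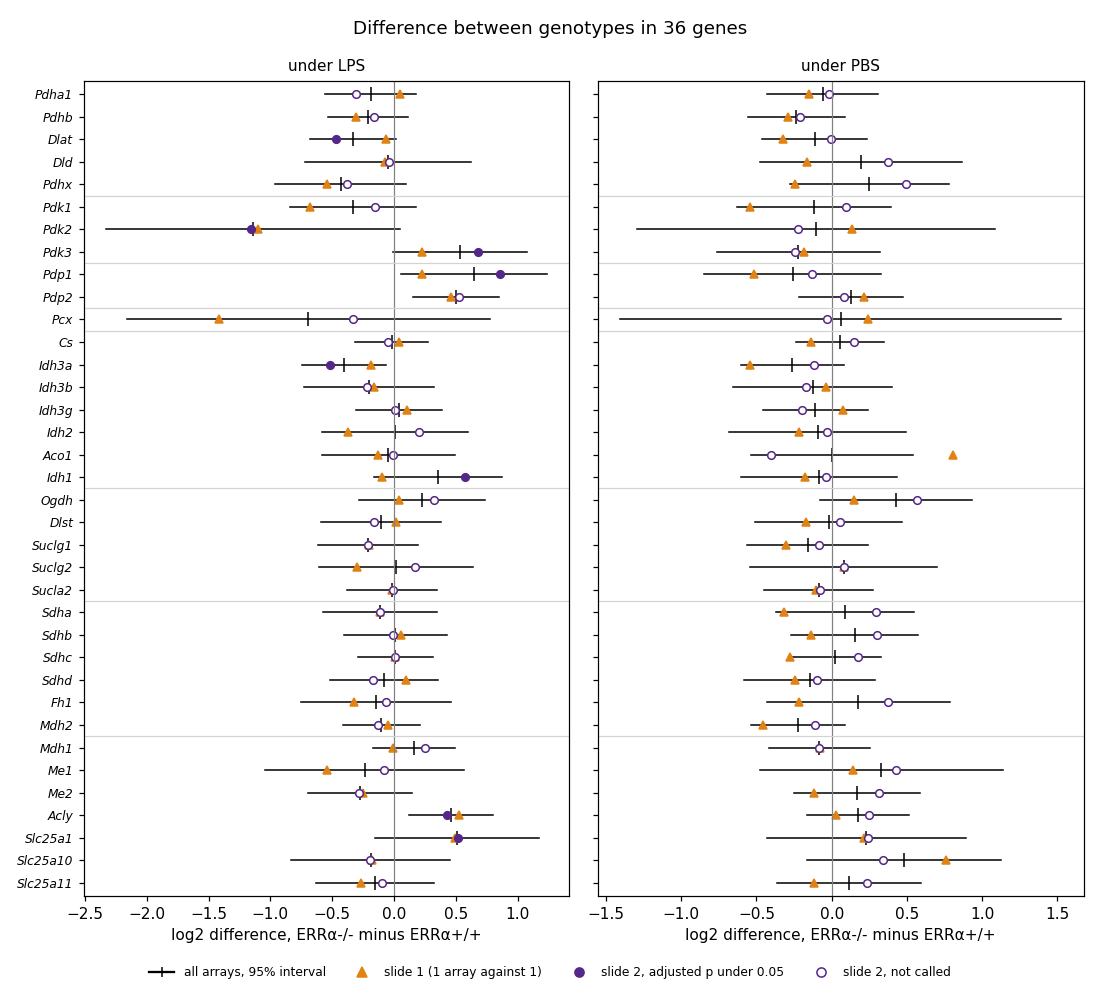
Log2 difference, ERRα-/- minus ERRα+/+, of the 36 genes under LPS (left) and PBS (right), by role (black, limma estimate with 95% interval, 3 arrays per group; orange triangles, slide 1, 1 array against 1; purple circles, slide 2, filled where called within that slide). Under LPS 8 circles are filled and under PBS 0, and the intervals of Pdk2 and Pcx are wide.

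By unadjusted p, Pdp2, Acly, Idh3a and Pdp1 were the genes of the set nearest to a genotype difference under LPS. Acly read 5.36, 5.35 and 5.32 in ERRα-/- cells with LPS, against 4.84, 4.84 and 4.97 in ERRα+/+ cells with LPS, with no overlap (0.46, 95% interval 0.12 to 0.80, adjusted p = 0.462). Its other probe gave 0.45. Pdp2 read 1.93, 1.86 and 1.92 in ERRα-/- cells with LPS, against 1.47, 1.30 and 1.44 in ERRα+/+ cells with LPS (0.50, 95% interval 0.16 to 0.85, adjusted p = 0.399). Idh3a was lower on each ERRα-/- LPS array than on each ERRα+/+ one, by the values above (-0.41, 95% interval -0.75 to -0.07, adjusted p = 0.603). Groups without overlap were found for 6 of the 36 genes under LPS (16.7%), beside 12% of all genes, and for 3 under PBS (8.33%), beside 14.2%.

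Slc25a1 was the 1 gene called when slide was fitted as a block. On the average of both treatments it was 0.37 higher in ERRα-/- cells (adjusted p = 0.041), beside 4.95% of all genes called in that fit. Under LPS 0 of the 36 genes were called with that block (beside 1.61% of all genes), under PBS 0 (beside 2.12%), and 0 for the difference in response (beside 0%). It was higher in the ERRα-/- array of each number under each treatment, by 0.35 on slide 1 and 0.38 within slide 2. Without the block the adjusted p was 0.682, and with the replicate number as the block 0.069. Fasn, fatty acid synthase, which lies downstream of exported citrate and is no member of the set, was 0.75 higher in the same fit (adjusted p = 0.00592).

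Within slide 2 alone, with 2 arrays per group, 8 of the 36 genes were called for genotype under LPS (22.2%), beside 16.9% of all genes. Acly, Idh1, Pdk3, Pdp1 and Slc25a1 were higher in ERRα-/- cells, and Dlat, Idh3a and Pdk2 lower, beside 8.13% of all genes higher and 8.77% lower. On slide 1 the difference had the same sign in 7 of them, Idh1 being the exception (-0.10, against 0.58 within slide 2). Pdp1 was 0.86 higher within slide 2 (adjusted p = 0.00436) and 0.23 higher on slide 1. Pdk2 differed by -1.16 within slide 2 (adjusted p = 0.00752) and by -1.10 on slide 1. Its level was well above background on only 1 of 3 ERRα-/- and 2 of 3 ERRα+/+ LPS arrays. On the average of both treatments 7 were called within slide 2 (19.4%, beside 20.4% of all genes), and under PBS 0 (beside 9.52%).

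The LPS response of 2 genes differed between genotypes within slide 2 (5.56%, beside 4.19% of all genes). The Pdk3 rise was 0.92 larger in ERRα-/- cells (adjusted p = 0.0301). Pdp1 fell in ERRα+/+ cells (-0.73) and not in ERRα-/- cells (0.26), a difference in response of 0.99 (adjusted p = 0.0196). Over all arrays these differences were 0.75 (95% interval -0.01 to 1.52) and 0.91 (0.07 to 1.74), each with an adjusted p of 1. For the genes called for LPS in 1 genotype alone, the interval of the difference in response over all arrays held 0 in all but Pdp1: Me2 -0.44 (-1.03 to 0.15), Pdk1 -0.21 (-0.94 to 0.51), Slc25a11 -0.27 (-0.95 to 0.40), Ogdh -0.20 (-0.91 to 0.52) and Slc25a10 -0.67 (-1.58 to 0.24). With slide as a block the Me2 interval left out 0 (-0.80 to -0.09), though it was not called (limma adjusted p = 0.694). Within slide 2 the Me2 difference in response was -0.60 (limma adjusted p = 0.0504).

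**Figure D4:**
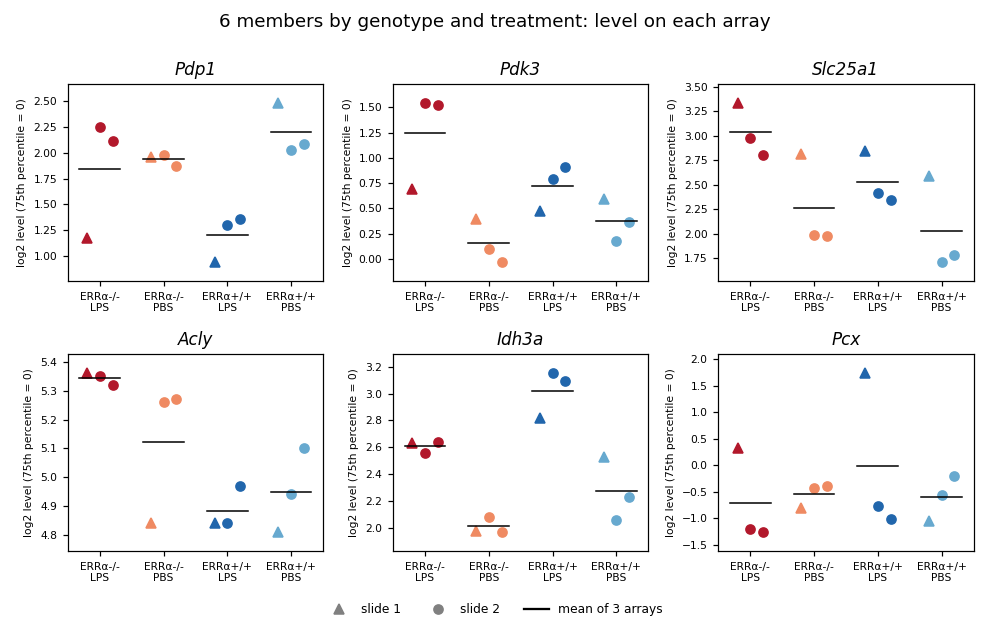
Level on each array (log2, 75th percentile of the array = 0) of Pdp1, Pdk3, Slc25a1, Acly, Idh3a and Pcx, with the groups from left to right ERRα-/- LPS, ERRα-/- PBS, ERRα+/+ LPS and ERRα+/+ PBS (triangles, slide 1; circles, slide 2; lines, means of 3 arrays). The slide 1 triangles of Pdp1 and Pcx with LPS stand apart from the circles of their groups, and the 3 Acly points of ERRα-/- cells with LPS lie above those of ERRα+/+ cells with LPS.

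Genes that feed or drain the cycle were listed beside the set, and their counts stand beside 25.1% of all genes higher and 25.3% lower with LPS in ERRα-/- cells, and 22.2% higher and 23.7% lower in ERRα+/+ cells. Of 8 genes of pyruvate and lactate exchange, 2 rose and 2 fell with LPS in ERRα-/- cells, and 2 rose and 1 fell in ERRα+/+ cells. Slc16a3, the lactate exporter, rose by 2.05 ± 0.15 and 2.45 ± 0.15, and Ldhb, the lactate dehydrogenase subunit that favours pyruvate, fell (-0.83 ± 0.16 and -1.03 ± 0.16). Of 13 tested genes of lipoate and iron-sulfur supply, on which Dlat, Dlst and succinate dehydrogenase depend, 1 rose and 6 fell in ERRα-/- cells, and 2 rose and 2 fell in ERRα+/+ cells. Of 16 tested genes of amino acid and ketoacid exchange 4 rose and 9 fell, and 3 rose and 7 fell. There the glutamate carrier Slc25a22 rose by 3.55 ± 0.45 and 3.40 ± 0.45 and D2hgdh, which returns 2-hydroxyglutarate to 2-oxoglutarate, fell (-2.49 ± 0.30 and -1.99 ± 0.30). Of 9 tested genes that use citrate or acetyl-CoA 1 rose and 4 fell, and 1 rose and 2 fell. The riser was Acod1, the enzyme that makes itaconate, at 9.22 ± 0.74 in ERRα-/- and 11.58 ± 0.74 in ERRα+/+ cells. No gene of these 4 lists was called for genotype without a block. Fasn, Slc16a3 and Ldhb were called with slide as a block, with ERRα-/- minus ERRα+/+ differences of -0.42 for Slc16a3 and -0.45 for Ldhb on the average of both treatments. They were 2 of the 8 genes of pyruvate and lactate exchange and 1 of the 9 that use citrate or acetyl-CoA. In the lists of 13 and 16 tested genes 0 were called on the average, and over all genes that fit called 4.95%.

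Some markers of other cell types rose with LPS, beside 25.1% of all genes in ERRα-/- and 22.2% in ERRα+/+ cells. Of 6 tested dendritic cell markers 4 rose in ERRα-/- and 2 in ERRα+/+ cells, with Zbtb46 at 6.63 and 6.25. Of 3 tested mast cell markers 2 rose in ERRα-/- and 1 in ERRα+/+ cells (list medians 1.07 and 0.04), with Hdc at 5.40 and 4.32. Of 7 stromal markers 1 rose in each genotype (medians 0.55 and -0.29), which was Pdgfrb at 5.28 and 5.35. Of 8 tested neutrophil markers 1 rose and 0 fell in ERRα-/- cells (median 0.21). In ERRα+/+ cells 0 rose and 1 fell (median -0.40), beside 23.7% of all genes lower. With slide as a block 2 rose and 2 fell in ERRα-/- cells, beside 65.5% of all genes called either way. In ERRα+/+ cells that fit called 0 higher and 3 lower, beside 62.7%. The summed linear level of 6 of the 7 measured dendritic markers (Siglech, which lacked a value on some arrays, was left out), in units of the 75th percentile, was 6.43 to 22.2 with LPS and 0.533 to 5.88 with PBS in ERRα-/- cells, and 7.53 to 8.57 with LPS and 1.43 to 3.40 with PBS in ERRα+/+ cells. Xcr1 of dendritic cells, Ms4a2 and Fcer1a of mast cells, Ncr1 of NK cells, and Klf1 of erythroid cells were well above background on no array. The sum of the 5 measured erythroid and megakaryocyte markers was 100 to 109 in ERRα-/- cells with LPS, against 143 to 204 in ERRα+/+ cells with LPS. With PBS it was 63.2 to 68.8 in ERRα-/- cells and 73.1 to 116 in ERRα+/+ cells. The sum of the 7 stromal markers was 6.79 to 13.5 in ERRα-/- cells with LPS and 12.3 to 17.2 in ERRα+/+ cells with LPS, and 3.93 to 4.18 in ERRα-/- cells with PBS and 5.70 to 12.2 in ERRα+/+ cells with PBS. The sum of the 8 neutrophil markers overlapped between genotypes with LPS (320 to 495 in ERRα-/- and 266 to 534 in ERRα+/+ cells) and did not with PBS (232 to 286 in ERRα-/- and 306 to 441 in ERRα+/+ cells). No marker was called for genotype without a block. In the fit with slide as a block, 2 of 3 tested erythroid and megakaryocyte markers, Hba-a1 and Itga2b, were lower in ERRα-/- cells on the average of both treatments (-1.12 and -1.09) and under PBS, and Itga2b under LPS too (-0.99, adjusted p = 0.0456). In that fit 1 of 8 neutrophil markers was also lower on the average (Prtn3, -1.21) and 1 under PBS (Mpo, -1.50), as was 1 of 7 stromal markers under PBS (Cdh5, -1.53). Over all genes the same fit called 4.95% either way on the average, 2.12% under PBS and 1.61% under LPS. The part of these cells in the values of the set was not tested.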

How the data were processed

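One-colour Agilent arrays (Cy3) were read for 12 samples. The values used are the processed spot intensity, deposited by the authors with its background already subtracted, and, as other columns per the file headers, flags that mark non-uniform spots, saturated spots and those well above background. The headers give Feature Extraction 11.5.1.1 and the submitters' processing notes 9.3.2.1. The deposited value table equalled the processed intensity at every spot.

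Control and non-uniform spots were left out, spots of a probe averaged, and each array's 75th percentile subtracted on the log2 scale, computed here from the deposited intensity. Transcript accessions were matched to RefSeq (GRCm38.p6), which named 27509 of 55681 probes. A probe was kept if well above background on all 3 arrays of a group, and the brightest kept probe stood for its gene. A group-means model was fitted on all 12 arrays with limma 3.58.1 in R 4.3.3, with Benjamini-Hochberg adjustment over 13120 genes and calls at an adjusted p under 0.05, two-sided. The fit was tested on simulated data. The number of arrays limits the precision.

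Slide 1 held 4 arrays and slide 2 held 8. The labels name different array formats for them, although all files have the same 62976 spots. Each slide holds all groups, so slide was fitted as a block and values given within each. Samples of 1 number deviated together from their group means (r = 0.143 to 0.783 over 18 pairs across genes, and 11 of 12 arrays matched their own number best), so replicate number was fitted as a block too. Of these pairs 6 join arrays of number 1, where number and slide cannot be told apart. The 12 pairs of the same number, 2 or 3, gave 0.143 to 0.652 (median 0.283). Numbers 2 against 3 on the same slide also correlated (0.129 to 0.556, median 0.240). Replicate 1 carries no number in its title. Alternatives were the background correction, normalization, dim-probe filter, probe summary, trend, blocks, and each array left out. The background correction by normexp used the median signal, since the files used here give no mean signal.

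The members and lists were chosen with earlier results of these data known. Every member was accounted for, with values on every array for members called in any comparison, or called for genotype with slide as a block. Values of Acly, Pdp2, Fh1 and Pcx were added after they were seen. Some genes of the related and marker lists are not reported here.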

Additional observations from a re-analysis of the deposited data

Results flagged for a closer look

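Within slide 2, with 2 arrays per group, the LPS response of Pdk3 was 0.92 larger in ERRα-/- than in ERRα+/+ cells on the log2 scale (limma adjusted p = 0.0301), and on slide 1, with 1 array per group, 0.42 larger. Pdp1 differed with LPS by 0.26 in ERRα-/- and -0.73 in ERRα+/+ cells within slide 2, 0.99 apart (limma adjusted p = 0.0196). On slide 1 Pdp1 was lower with LPS in each genotype (-0.80 in ERRα-/- and -1.54 in ERRα+/+ cells), 0.75 apart. Both genes are listed because 2 genotypes differed under the same contrast by a test of the difference itself. With all 12 arrays neither passed the adjusted test.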

How the results depend on the processing

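Of the 31 LPS calls, 23 were kept without each of the 12 arrays, 20 under each of the other 11 settings and 19 under all of them, except that Pdk2 had only 10, since a filter on all arrays removed its probe. Leaving out single arrays gave 11 (without ERRα-/- PBS replicate 2) to 18 calls in ERRα-/- cells, 12 to 15 in ERRα+/+ cells and 0 to 0 for genotype and the difference in response. Over all 13120 genes the same fits called 5141 to 7230 in ERRα-/- cells and 4546 to 6690 in ERRα+/+ cells. For genotype they called 3 to 42 genes under LPS, 3 to 81 under PBS and 84 to 263 on the average, and 0 for the difference in response. With the replicate block 22 genes were called in ERRα-/- and 19 in ERRα+/+ cells, Idh3b, Ogdh, Suclg1, Fh1, Mdh2, Slc25a1 and Pdhx being added in the genotypes named above, and no genotype call changed. Within slide 2 the counts were 25 for LPS in ERRα-/- cells, 8 for genotype under LPS, 7 on the average (1 with slide as a block) and 2 for the difference in response. Normexp gave 15 and 13 LPS calls in ERRα-/- and ERRα+/+ cells, quantile normalization 20 and 17, no filter on dim probes 12 and 13, and limma with a trend 18 and 15. For normexp, no filter and the trend the counts over all genes are not given here. Those 3 settings thus do not show whether the set moved apart from other genes. Directions turned for Cs (-0.038), Ogdh (-0.16), Sucla2 (-0.13) and Mdh2 (-0.19) in ERRα-/- cells and for Ogdh (-0.14) and Mdh2 (-0.22) in ERRα+/+ cells under quantile normalization, and for Ogdh by genotype on the average under quantile normalization (-0.18) and normexp (-0.19). They also turned for Pdp1 in ERRα-/- cells within slide 2 (0.26) and without ERRα-/- LPS replicate 1 (0.25), for Pcx in ERRα+/+ cells within slide 2 (-0.52) and without ERRα+/+ LPS replicate 1 (-0.29; up to 1.08 without other arrays), and for Pcx in ERRα-/- cells without ERRα-/- LPS replicate 2 (0.08) or replicate 3 (0.10; down to -0.69 without other arrays). These turns are among the 66 results called over all arrays, with slide as a block or within slide 2. Of the 150 results called in none of these, 90 changed sign under some setting, such as Slc25a10 in ERRα-/- cells (-0.05) and Sdhd in ERRα+/+ cells (0.19) within slide 2. The cause of these turns was not tested. Signal near background limits Pdk2 with LPS and Pdk4 throughout.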
